A study of Homo sapiens with 16 samples.

Results

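The nuclear genes of oxidative phosphorylation were examined in U937, a human monocytic leukaemia line, with and without induction of AML1-ETO. The members are the probe sets that the platform annotation pairs with exactly 1 gene symbol of the NDUFA, NDUFB, NDUFC, NDUFS, NDUFV, UQCR, COX4 to COX8 or ATP5 families, or with SDHA, SDHB, SDHC, SDHD, CYC1 or CYCS. The rule uses symbols only, though it was set with earlier results of these data known, and it takes in 70 of the 12626 probe sets on the array, for 62 genes. The rule also takes in 3 probe sets of 2 complex I assembly factors (NDUFAF1 and NDUFAF3) and COX7A2L, which acts in supercomplexes of the chain. All 16 arrays are of the same U937 cells, which carry the fusion gene under a tetracycline promoter, grown in RPMI medium with fetal calf serum. AML1-ETO joins the DNA-binding part of RUNX1 to most of RUNX1T1. The control groups were sampled at 0, 24, 48 and 72 h and the induced groups at 12, 24, 48 and 72 h, with 2 arrays in each of the 8 groups. No control of 12 h is among the 16 arrays, and the labels do not say whether the controls were exposed to any agent, or whether the cells are a single clone. The labels do not call the 2 arrays of a group separate cultures, so the spread behind the p-values may be technical.

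Oxidative phosphorylation is the last stage of respiration in mitochondria. Complex I takes electrons from NADH and complex II from succinate, both pass them to ubiquinone, complex III hands them on to cytochrome c, and complex IV reduces oxygen. Complexes I, III and IV pump protons, and complex V (ATP synthase) lets them flow back to make ATP. Most subunits are encoded in the nucleus and must be matched by the few encoded in mitochondrial DNA. Of the list of 13 mitochondrially encoded subunits, 0 were tested, so only nuclear transcripts are described.

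The arrays gave 1 linear intensity per probe set, in arbitrary array units, scaled to the same mean of 1371 on each array. Intensities were floored at 135.6 and taken to log2, and a probe set was tested where at least 2 arrays exceeded 292.7, the median of all values. That left 7824 probe sets, 62 of them members, for 57 genes. Within those 62, only 0.605% of values lay at the floor, against 9.81% over all tested probe sets. The other 8 members did not pass the filter and have no result: both probe sets of ATP5MC2, the only ones of NDUFB6, COX7A1, ATP5MF and ATP5F1B, and a second one each of NDUFV2 and NDUFAF1. Tested members were bright: the median member intensity of an array was between 5138 and 7382, against a median of 220.3 to 337.5 over all probe sets of an array. Intensity depends on the probes, so levels are compared between arrays and not between genes. Many of these genes have processed pseudogenes, and signal from near-identical transcripts was not told apart.

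RUNX1T1, whose sequence forms most of the fusion, has 4 probe sets, of which 1 was tested. The others did not pass the filter, and the tested probe set passed it only through arrays labelled induced. The tested probe set was at 91.4 or below on the 8 control arrays. On the 4 arrays labelled induced at 48 and 72 h it was between 3974 and 10603. At 12 h both arrays labelled induced (-116.5 and 86.1), and at 24 h 1 of 2 (-47.5, against 1592 on the other), were in the control range; these groups are called induced by their labels. Of 15 monocyte and myeloid markers on the array, 8 exceeded the median of all values on at least 8 arrays, and CSF1R and ITGAM were at or under the floor on all 16. The summed intensity of the myeloid markers was 34801 to 44358 in the controls and 22380 to 24219 in induced cells at 48 and 72 h. By gene, 13 myeloid markers were tested and went both ways at 72 h. Of these, 6 were lower: CTSG, PRTN3, SPI1, AZU1, ELANE and FES, the last with both induced 72 h arrays at the floor. The 2 higher ones were CD4 (log2 1.17, adjusted p = 0.0137) and ITGAX (adjusted p = 0.00024, with both 72 h controls at the floor). Of all tested probe sets, 13.9% were called lower and 16.1% higher at 72 h. The summed ranges of erythroid, lymphoid and epithelial markers overlapped between these groups. The ratio of 3′ to 5′ GAPDH signal was 0.670 to 0.804 in controls and 0.699 to 0.807 in induced cells at 48 and 72 h. The myeloid sum moved with the results below, and its part in them was not tested.

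Induced and control cells were compared at each hour with limma, with calls made at an adjusted p under 0.05 (Benjamini-Hochberg over all 7824). At 24 h no member was called (0% of all tested probe sets were), while 5 of the 62 members had an unadjusted p under 0.05, against 5.07% of all tested. With no mean-variance trend limma also called no member. At 48 h 2 members were higher and 5 lower, which is 11.3% of the 62, against 19.2% called among all tested (10.5% higher and 8.68% lower). At 72 h 1 was higher and 12 lower, together 21% of members against 30% of all tested. By direction, 19.4% of members were called lower at 72 h against 13.9% of all tested, and 1.61% higher against 16.1%. The share of members called was thus below that of all tested probe sets at 48 and 72 h, above it among lower calls at 72 h and below it among higher calls, and these gaps were not tested. As whole-culture RNA was measured, fewer cells of a type and less RNA per cell cannot be told apart here or in the results that follow. With each array centred on its median, 0 members were higher and 14 lower at 72 h. All tested probe sets shifted the same way: of the 2314 called with that centring, 43.2% were higher, against 53.6% of the 2348 called without it. Of the 7 members called at 48 h, 6 were called with the same sign at 72 h. That is 85.7% of the 48 h calls and 46.2% of the 72 h calls. The 2 times rest on different arrays but share the fit's estimate of the spread. This overlap was not counted over all tested probe sets, so it cannot be called particular to the members. Leaving out any 1 of the 4 arrays of 48 h left 1 to 3 members called at that time, and leaving out induced replicate 2 or control replicate 1 of 72 h left 6 at that time.

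The median log2 difference of the 62 members was 0.15 at 24 h, -0.05 at 48 h and -0.19 at 72 h, while that of all tested probe sets was 0.04, 0.09 and 0.18. Members below 0 numbered 14, 38 and 45 of 62 at the 3 times, against 43.5%, 44.4% and 41.9% of all tested probe sets. At 72 h the median was lowest for complex III (-0.44), followed by complex V (-0.28), complex IV (-0.21) and complex I (-0.11), and it was above 0 for complex II (0.25). By calls, 4 of 7 tested probe sets of complex III were lower at 72 h, 4 of 22 of complex I, 3 of 14 of complex V, 1 of 12 of complex IV and 0 of 3 of complex II. The 4 of complex III are 3 genes, as CYC1 has 2 probe sets, and all 4 calls were lost without control replicate 1 of 72 h. These are descriptions of small groups, and differences between the complexes were not tested. All log2 differences are as fitted; relative to the median of all tested probe sets at 72 h they would be 0.18 lower.

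**Figure D1:**
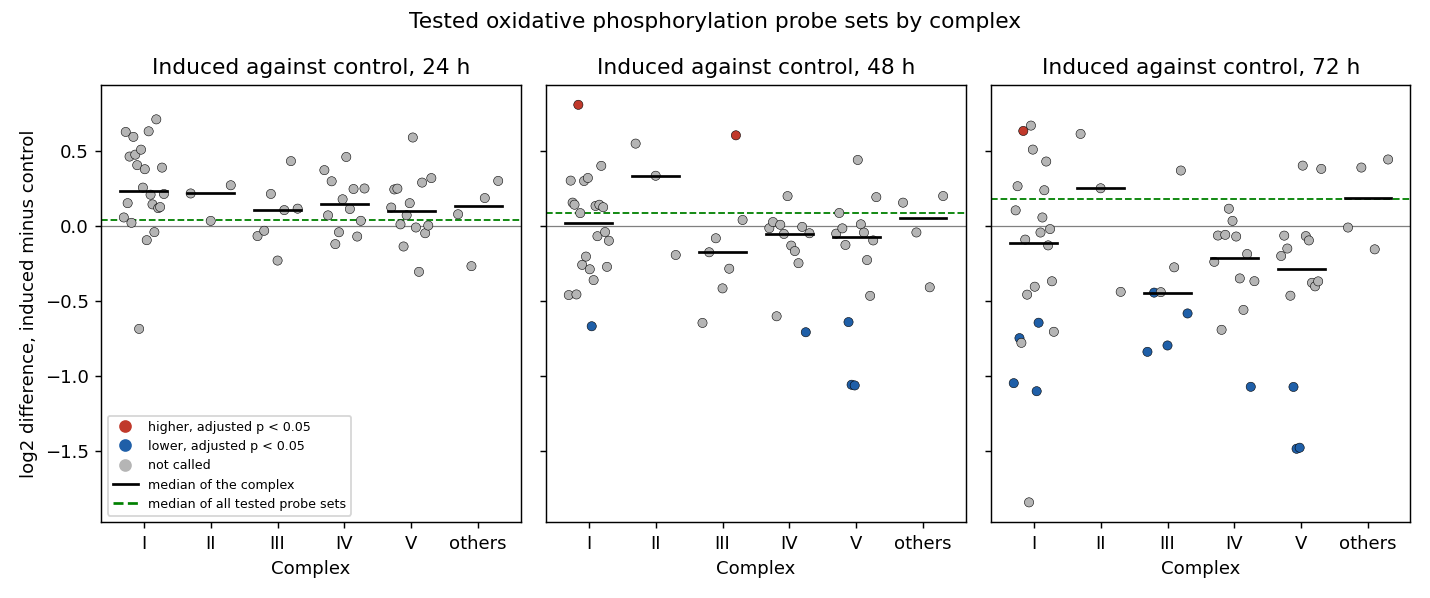
Log2 difference of induced minus control cells for each of the 62 tested oxidative phosphorylation probe sets at 24, 48 and 72 h, by complex, 1 point per probe set; black lines are medians of a complex and the dashed line is the median of all 7824 tested probe sets. The points spread downwards from 24 to 72 h, where the complex III median was -0.44 and 12 members were called lower.

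The promoters of these genes were looked up in RefSeq (GRCh38.p14), where 51 of the 62 genes had an entry of 250 bases before and 50 after the start. Sites were searched on both strands for the ETS letters CCGGAAG, bound by factors such as GABPA, and for the consensus of NRF1 and of YY1, all known regulators of respiratory chain genes. The ETS letters were in 16 of 51 (31.4%), against 14.2% of 6617 genes on the array and 10.7% of all 27305 promoters. The NRF1 consensus was in 2 (3.92%, against 1.75% and 1.36%) and the YY1 consensus in 3 (5.88%, against 1.72% and 0.916%). Of the 7 genes called lower with an entry, 0 held the ETS letters, and of the 3 called higher 1 did (NDUFA1). These are matches of letters, not measured binding, and the shares were not tested. The 250 bases before the start follow for ATP5MC1 and NDUFV1, members called lower at both 48 and 72 h, for NDUFV2, which rose, and for NDUFA1 and SDHD, which hold the ETS letters. Capitals mark the ETS letters, which read CTTCCGG on the other strand. The windows are chr17:48892537-48892786, chr11:67606686-67606935, chr18:9102449-9102698, chrX:119871582-119871831 and chr11:112086623-112086872, all on the plus strand.
ATP5MC1: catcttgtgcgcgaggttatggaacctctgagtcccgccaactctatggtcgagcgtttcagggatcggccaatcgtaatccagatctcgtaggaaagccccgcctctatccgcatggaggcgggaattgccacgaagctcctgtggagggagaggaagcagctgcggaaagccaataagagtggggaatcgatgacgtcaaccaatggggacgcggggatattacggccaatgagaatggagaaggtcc
NDUFV1: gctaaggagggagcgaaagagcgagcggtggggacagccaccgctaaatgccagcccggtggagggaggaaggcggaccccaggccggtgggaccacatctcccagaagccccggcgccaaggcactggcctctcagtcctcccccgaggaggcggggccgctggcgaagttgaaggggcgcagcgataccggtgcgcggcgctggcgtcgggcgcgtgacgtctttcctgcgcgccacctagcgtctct
NDUFV2: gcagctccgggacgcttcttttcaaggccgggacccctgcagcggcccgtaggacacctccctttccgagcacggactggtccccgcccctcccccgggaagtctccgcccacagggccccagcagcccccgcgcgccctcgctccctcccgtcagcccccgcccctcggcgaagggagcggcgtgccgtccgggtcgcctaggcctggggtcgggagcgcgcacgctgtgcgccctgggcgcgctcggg
NDUFA1: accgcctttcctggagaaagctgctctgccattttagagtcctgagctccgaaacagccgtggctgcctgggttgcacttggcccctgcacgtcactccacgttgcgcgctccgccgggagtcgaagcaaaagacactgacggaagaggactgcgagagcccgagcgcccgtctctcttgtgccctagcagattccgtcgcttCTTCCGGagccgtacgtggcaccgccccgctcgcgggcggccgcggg
SDHD: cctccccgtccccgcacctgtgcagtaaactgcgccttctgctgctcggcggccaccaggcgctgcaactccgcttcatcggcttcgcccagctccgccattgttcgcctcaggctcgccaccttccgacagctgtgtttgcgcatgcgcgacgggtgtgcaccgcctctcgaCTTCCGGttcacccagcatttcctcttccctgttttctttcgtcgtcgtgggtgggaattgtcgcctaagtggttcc
The ETS letters begin 77 bases before the start in SDHD, which also holds the NRF1 consensus, and 47 bases before it in NDUFA1.

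The largest declines that were called at 72 h were in the membrane ring and the central stalk of ATP synthase. ATP5MC1 encodes the c subunit, whose copies form the ring that turns as protons pass. Its intensity was 8365 and 8698 in the 0 h controls, 15590 and 9236 at 24 h, 12395 and 13661 at 48 h, and 10866 and 9329 at 72 h. In induced cells ATP5MC1 read 16309 and 12954 at 12 h, 13757 and 12941 at 24 h, 5894 and 6568 at 48 h, and 4108 and 3169 at 72 h. All 4 induced arrays of 48 and 72 h thus lay under every control array. The difference was a log2 value of -1.06 at 48 h (95% interval -1.53 to -0.60, adjusted p = 0.00381) and -1.48 at 72 h (-1.95 to -1.02, adjusted p = 0.000174), a 2.79-fold lower level, and at 24 h it was 0.15 (adjusted p = 1). Against the 0 h controls, which were lower than those of 48 h, the 48 h value was -0.46 and not called (adjusted p = 0.189), while the 72 h value was -1.24 (0.000731).

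ATP5F1D, the delta subunit of the central stalk, has 2 probe sets, and both fell. On the brighter one the 8 controls ranged from 9486 to 12382 with a median of 11112. The induced arrays read 12217 and 9915 at 24 h, 7824 and 6464 at 48 h, and 5756 and 5003 at 72 h, so the late ones were below all controls. Its log2 difference was -0.64 ± 0.16 (SE) at 48 h and -1.07 ± 0.16 at 72 h (adjusted p = 0.000254). The dimmer probe set read 1457 and 839 in induced cells at 72 h against 3294 and 2917 in the controls, a log2 difference of -1.49 ± 0.34 (adjusted p = 0.00488). Without replicate 2 of the induced 72 h arrays, the adjusted p of the dimmer probe set was 0.0707, and against the 0 h controls its value was -0.74 (0.133) at 72 h and -0.15 (0.832) at 48 h. At 48 h the call of the brighter set was lost without induced replicate 2 (0.131) or control replicate 1 (0.121), and that of the dimmer set without induced replicate 2 (0.345) or control replicate 1 (0.193) or 2 (0.125). The brighter probe set carries a suffix that the maker gives to sets that can match several transcripts.

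No other tested probe set of complex V was called at any time. ATP5MC3 encodes the same mature c subunit as ATP5MC1 from another gene, and it read 12828 and 9376 in induced cells at 72 h against 12541 and 12653 in the controls. The groups overlapped, and its log2 difference was -0.20 (95% interval -0.64 to 0.24, adjusted p = 0.498). The log2 ratio of ATP5MC3 to ATP5MC1 within an array, set to 0 at the mean of the 0 h controls, was -0.50 to -0.10 in the later controls. In induced cells that ratio was -0.61 and -0.93 at 12 h, below every control array, and -0.34 and -0.31 at 24 h. It was 0.71 and 0.41 at 48 h and 1.10 and 1.02 at 72 h, above every control array. It shows an unequal change of the 2 signals and not that either was stable. Among the other subunits, the values at 72 h ranged from -0.47 for ATP5PO, of the peripheral stalk, to 0.40 for ATP5MG, a small membrane subunit.

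**Figure D2:**
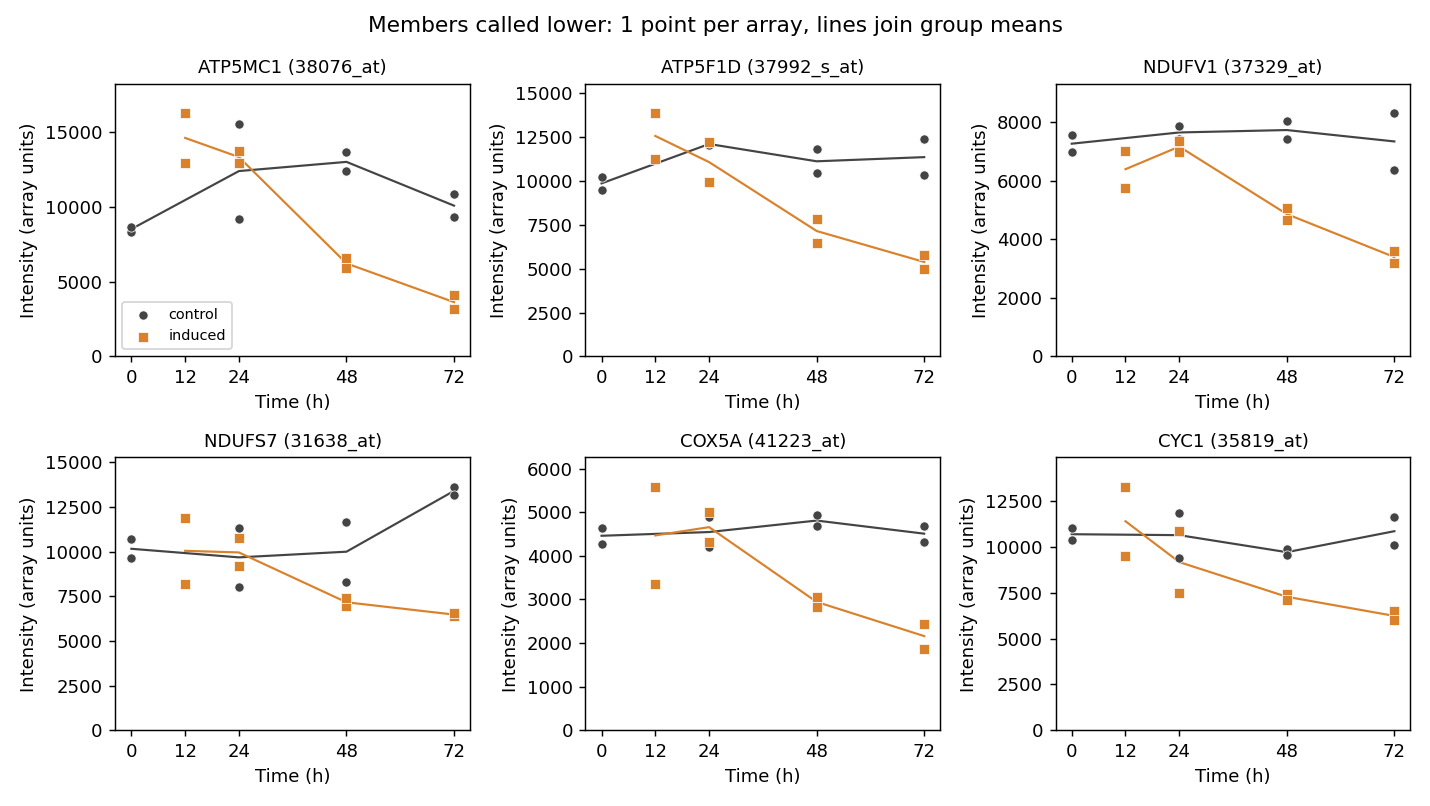
Intensity (linear array units, y axis from 0) against time in hours for 6 members called lower, 1 point per array, with lines through the group means of 2 arrays. At 24 h the groups overlapped for all but NDUFV1, and by 72 h both induced arrays of each gene lay under both controls, as for ATP5MC1 at 4108 and 3169 against 10866 and 9329.

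In complex I, the lower calls included catalytic subunits of the arm that takes electrons from NADH. NDUFV1 carries the flavin and the NADH site. Its 8 control arrays ranged from 6366 to 8317 with a median of 7490. NDUFV1 in induced cells was 7344 and 6985 at 24 h, 4662 and 5061 at 48 h, and 3598 and 3189 at 72 h, again under all controls at the later times. The log2 difference was -0.67 ± 0.16 (SE) at 48 h and -1.10 ± 0.16 at 72 h (adjusted p = 0.000142, the smallest of the members at that time). The 48 h call of NDUFV1 was lost without induced replicate 1 (adjusted p = 0.0667) or control replicate 1 (0.0787).

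NDUFS7, the iron-sulphur subunit beside the ubiquinone site, read 6379 and 6580 in induced cells at 72 h and 13649 and 13170 in the controls. The gap was wide, with a log2 difference of -1.05 ± 0.21 (adjusted p = 0.00191), and these controls were the 2 highest of the 8 (8024 to 13649); against the 0 h controls it was -0.65 (adjusted p = 0.0343). NDUFB8, an accessory subunit of the membrane arm, was 5128 and 4358 against 8313 and 7587 at 72 h (log2 -0.75 ± 0.21, adjusted p = 0.015). NDUFS5, another accessory subunit, was 5676 and 5628 against 8700 and 8986 (log2 -0.65 ± 0.19, adjusted p = 0.0224). At 24 h NDUFS5 had been 9850 and 9203 in induced cells and 5819 and 6476 in the controls, which was not called (adjusted p = 0.757). The NDUFS5 call at 72 h was lost without any of the 4 arrays of that time (adjusted p 0.0797 to 0.0894), and the NDUFB8 call without induced replicate 2 (0.109) or control replicate 1 (0.0939).

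The members of complex I called higher were NDUFV2, NDUFB1 and NDUFA1. NDUFV2 is the iron-sulphur subunit that sits next to NDUFV1 in the same arm. NDUFV2 control arrays ranged from 4224 to 6536, and the induced arrays read 7873 and 6952 at 24 h, 10132 and 7872 at 48 h, and 8969 and 7878 at 72 h. All 6 were above all 8 controls. Over the 3 times together, the log2 difference was 0.68 ± 0.13 (SE, 6 arrays a side, adjusted p = 0.00115). At 48 h it was 0.81 ± 0.22 (adjusted p = 0.0215) and at 72 h 0.64 ± 0.22 (adjusted p = 0.0462). The 72 h call was lost without induced replicate 1 (0.192) or 2 (0.0898) or control replicate 1 (0.359), and the 48 h call without induced replicate 1 (0.166) or control replicate 1 (0.091) or 2 (0.101). The second NDUFV2 probe set was under the floor on all arrays (at most 45.2) and measures nothing here.

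The ratio of NDUFV2 to NDUFV1 within an array puts the 2 signals side by side. On the log2 scale, with the mean of the 0 h controls at 0, the later controls lay between -0.47 and -0.01. The induced arrays were 0.15 and -0.11 at 12 h, 0.44 and 0.33 at 24 h, 1.46 and 0.98 at 48 h, and 1.66 and 1.65 at 72 h. The pair was chosen after its values were seen, so no test is given.

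**Figure D3:**
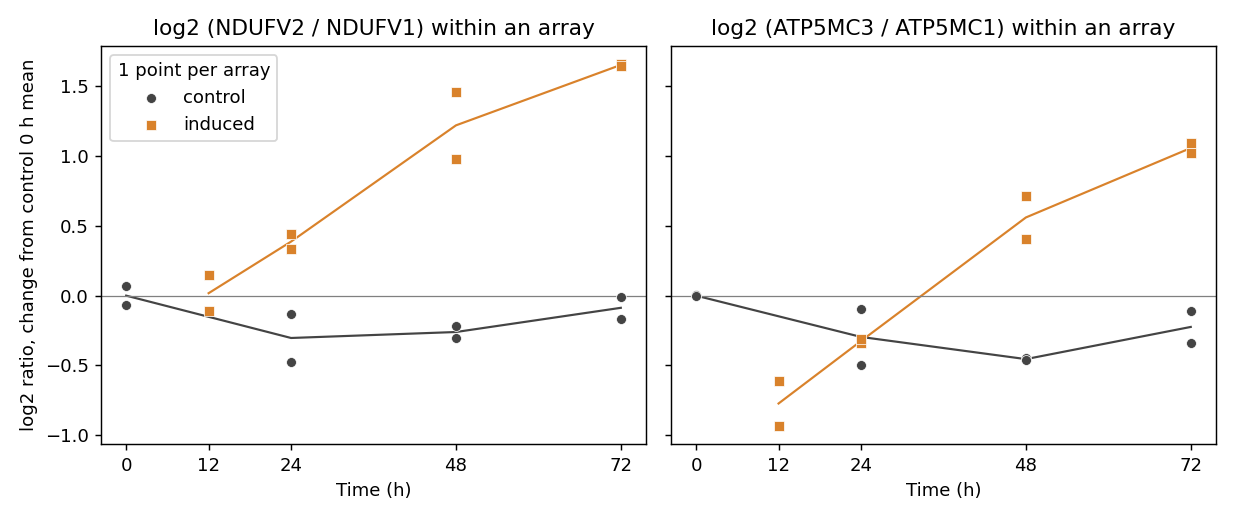
Log2 ratio of NDUFV2 to NDUFV1 (left) and of ATP5MC3 to ATP5MC1 (right) within each array, as change from the mean of the 0 h controls, against time in hours, 1 point per array with lines through group means. At 72 h the induced arrays were at 1.66 and 1.65 (left) and 1.10 and 1.02 (right), above all controls. On the right, the induced arrays of 12 h lay below all controls, at -0.61 and -0.93.

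NDUFB1 and NDUFA1 are small accessory subunits of the membrane arm, and both were called over the 3 times together and at no single time. NDUFB1 read 5241 and 4259, 7140 and 5424, and 6530 and 5624 in induced cells at 24, 48 and 72 h, against 3644 and 2280, 4298 and 5158, and 4658 and 4337 in the controls. At each time both induced arrays exceeded both controls (log2 0.52 ± 0.15, adjusted p = 0.0165). NDUFA1 read 15062 and 13101 at 48 h and 14143 and 14299 at 72 h in induced cells, all above the control maximum of 11702 (log2 0.36 ± 0.11 over the 3 times, adjusted p = 0.0198). At 24 h the NDUFA1 groups overlapped. The NDUFA1 call was lost without replicate 1 of induced 24 h or 48 h, replicate 1 of control 48 h or replicate 2 of control 24 h (adjusted p 0.0514 to 0.0581). The NDUFB1 call was lost without replicate 1 of induced 24 h (0.0524), induced 48 h (0.0537) or control 48 h (0.0501).

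At 72 h 17 of the 22 complex I probe sets were not called. NDUFS6, an accessory subunit, had a log2 difference of -0.78 (adjusted p = 0.0594). The 2 probe sets of NDUFB7 went opposite ways (-1.85 and 0.67 at 72 h, adjusted p = 0.0554 and 0.455), and the lower one was dim, at 920.0 and 366.2 in the controls and 192.4 and -662.3 in induced cells. Core subunits NDUFS1 (-0.04) and NDUFS3 (-0.09), which carry or adjoin the electron path, had values near 0 (adjusted p = 0.955 and 0.81). The assembly factors NDUFAF1 and NDUFAF3 were at 0.44 and 0.39 and were not called.

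The 3 complex II probe sets, for succinate dehydrogenase, gave 1 call over the 3 times together. SDHC, a haem-binding membrane anchor, read 1425 and 1719, 1971 and 2485, and 2287 and 1703 in induced cells at 24, 48 and 72 h, against 1466 and 1235, 1370 and 1666, and 1105 and 1501 in the controls. The groups overlapped at 24 h and were apart at 48 and 72 h (log2 0.46 ± 0.15 over the 3 times, adjusted p = 0.0259). The SDHC call was lost without any of 6 of the 12 arrays: replicate 1 of induced 72 h, control 48 h or control 72 h, and replicate 2 of induced 24 h, induced 48 h or control 24 h (adjusted p 0.056 to 0.0819). SDHA, the flavoprotein, was at 0.25 and the other anchor, SDHD, at -0.44 at 72 h, and neither was called (adjusted p = 0.36 and 0.0948).

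Complex III had 4 of its 7 probe sets lower at 72 h. CYC1 encodes cytochrome c1, which passes electrons to cytochrome c, and has 2 probe sets that gave similar values. On the first of them CYC1 was 7445 and 7124 at 48 h and 6486 and 5994 at 72 h in induced cells, against 9886 and 9551, and 11616 and 10110, in the controls. The induced arrays were lower at both times, and the 72 h log2 differences of the 2 probe sets were -0.80 ± 0.20 (adjusted p = 0.00719) and -0.84 ± 0.22 (adjusted p = 0.00945). Both CYC1 calls at 72 h were lost without induced replicate 2 (adjusted p = 0.0528 and 0.117) or control replicate 1 (0.0647 and 0.0873), and both held over the 3 times together (-0.48 and -0.52, adjusted p = 0.00499 and 0.00589).

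UQCRC1 and UQCRC2, the large core proteins on the matrix side, fell less. UQCRC1 was 11730 and 10819 in induced cells against 15817 and 14857 in the controls at 72 h (log2 -0.44 ± 0.14, adjusted p = 0.0262). UQCRC2 was 2904 and 3065 against 4355 and 4590 (log2 -0.58 ± 0.16, adjusted p = 0.0157). The UQCRC2 controls of 24 and 48 h were lower than those of 72 h, and a 24 h control lay between these induced values. Against the 0 h controls the 72 h value of UQCRC2 was -0.72 (adjusted p = 0.00496). The UQCRC1 call at 72 h was lost without induced replicate 2 (0.128) or control replicate 1 (0.124) or 2 (0.0543), and the UQCRC2 call without induced replicate 1 (0.0702) or control replicate 1 (0.0546) or 2 (0.0786). UQCRB, a small subunit near the ubiquinone site, went the other way. UQCRB in induced cells read 10304 and 7867, 10218 and 12914, and 9620 and 9302 at 24, 48 and 72 h, and in the controls 7334 and 6056, 7446 and 7647, and 7407 and 7223. Both induced arrays exceeded both controls at each of these times. The log2 difference of UQCRB was 0.47 ± 0.11 over the 3 (adjusted p = 0.00602) and 0.61 ± 0.20 at 48 h (adjusted p = 0.0465). With each array centred on its median, the value over the 3 times was 0.33 and not called (adjusted p = 0.102). The 0 h controls of UQCRB were 12593 and 8571, and against them the average was -0.07 (adjusted p = 0.827), so its sign differs with the controls used. The 48 h call of UQCRB was lost without any of the 4 arrays of that time (adjusted p 0.0557 to 0.288).

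**Figure D4:**
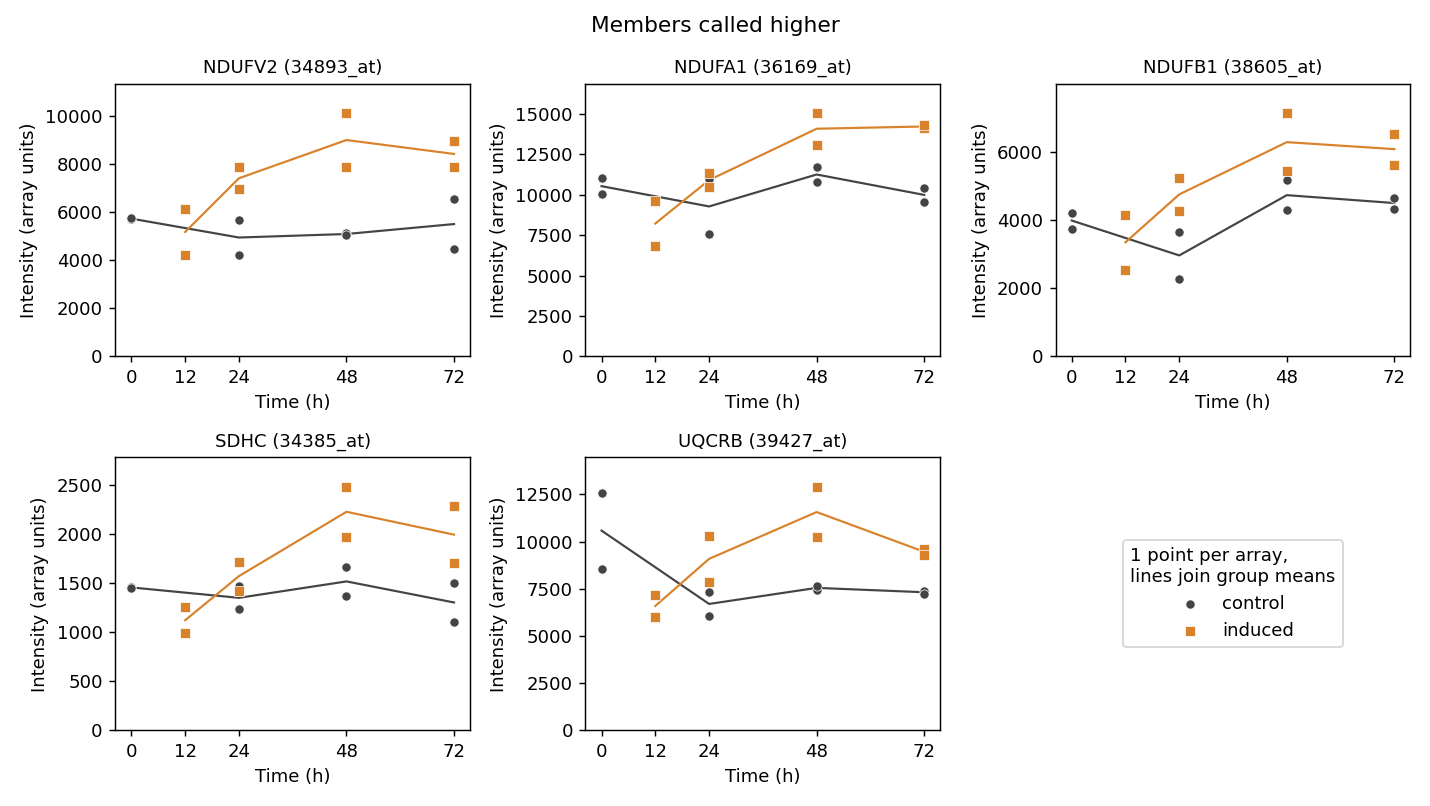
Intensity (linear array units, y axis from 0) against time in hours for the 5 members called higher over 24, 48 and 72 h together, 1 point per array, with lines through the group means of 2 arrays. NDUFV2 was above all controls at 24, 48 and 72 h, while the 0 h controls of UQCRB, at 12593 and 8571, lay within the range of its induced values.

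In complex IV, cytochrome c oxidase, 1 of 12 tested probe sets was called. COX5A, a nuclear-encoded subunit on the matrix side, ranged from 4203 to 4934 over the 8 controls. In induced cells COX5A read 5002 and 4310 at 24 h, 3064 and 2820 at 48 h, and 2443 and 1874 at 72 h, the late values all under the controls. Its log2 difference was -0.71 ± 0.22 (SE) at 48 h (adjusted p = 0.0361) and -1.07 ± 0.22 at 72 h (adjusted p = 0.00202). The 48 h call of COX5A was lost without any of the 4 arrays of that time (adjusted p 0.0951 to 0.163). The other subunits ranged at 72 h from -0.69 for COX7B to 0.12 for COX6A2. COX4I1, a subunit needed early in assembly, was 14883 and 11845 in induced cells against 12850 and 13075 (log2 0.03, 95% interval -0.39 to 0.46, adjusted p = 0.922). COX6A1 and COX6A2, the general and the heart and muscle forms of 1 subunit, were at -0.19 and 0.12 (adjusted p = 0.529 and 0.862), and COX7A2 at -0.37 (0.506). The 2 probe sets of COX5B differed in sign over the 3 times (0.09 and -0.13), and neither was called. CYCS, cytochrome c itself, was 11561 and 9723 in induced cells at 48 h against 13644 and 14522 (log2 -0.41 ± 0.16, adjusted p = 0.0913) and was not called at any time.

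**Figure D5:**
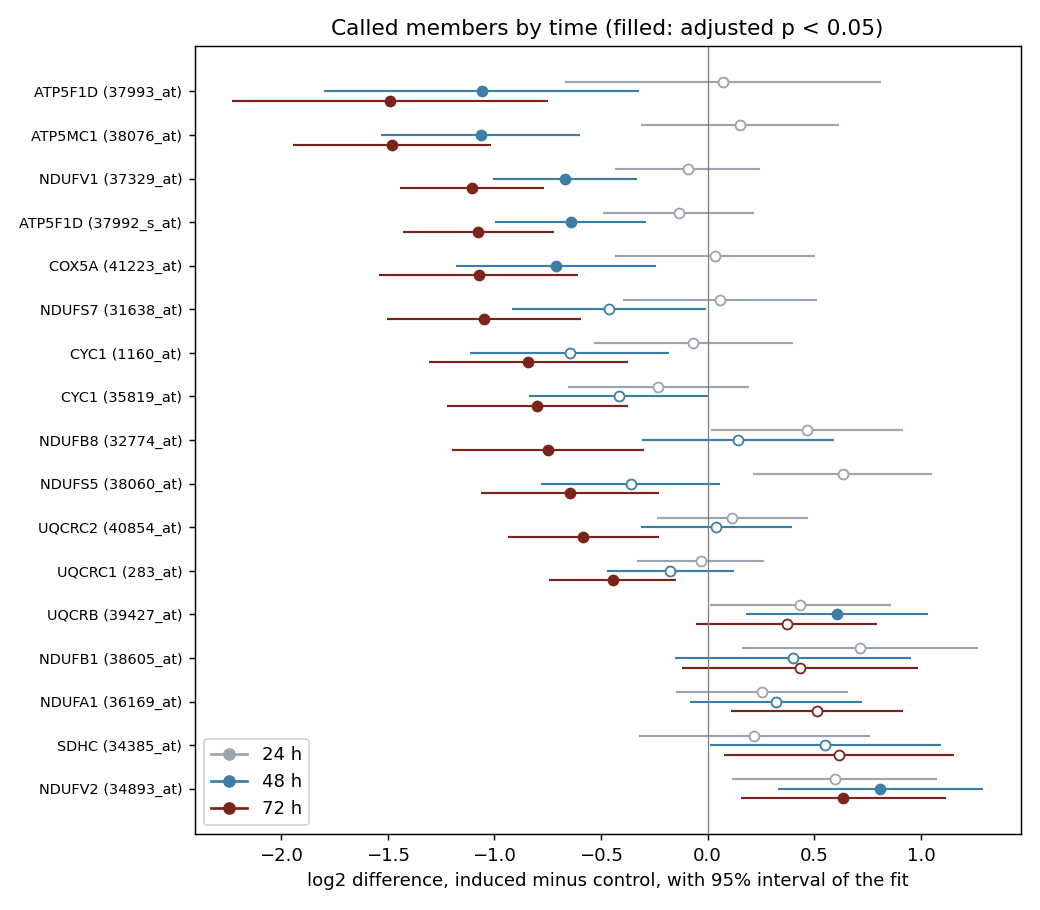
Log2 difference of induced minus control at 24, 48 and 72 h for the 17 probe sets called in at least 1 comparison (x axis, with the 95% interval of the fit); filled points have an adjusted p under 0.05. For the 12 lower members the 72 h value is the lowest, from -0.44 for UQCRC1 to -1.49 for ATP5F1D, and the 5 higher ones lie right of 0 at all 3 times.

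Over 24, 48 and 72 h together, 13 members were called (21% of 62, against 31.9% of all tested): 5 higher and 8 lower, against 18.5% and 13.4%. With median centring of the arrays 1 was higher (NDUFV2) and 10 lower. The calls of UQCRB, NDUFB1, NDUFA1 and SDHC were lost with it (adjusted p = 0.102, 0.147, 0.292 and 0.129). Of the 2515 probe sets called with that centring, 44.8% were higher, against 58.1% of the 2499 called without it. Against the 0 h controls in place of those of the same time, 4 members were called over the 3 times, all lower (NDUFV1, both CYC1 probe sets and UQCRC2). In that comparison 1 was called at 48 h (NDUFV1) and 10 at 72 h. The shares of all tested probe sets given above are for the same-time controls and do not apply to these counts. Against the 0 h controls none of the 5 higher ones was called over the 3 times, with NDUFV2 at 0.52 (adjusted p = 0.0676). With the same-time controls, 35 of 62 members were below 0 over the 3 times, against 42.6% of all tested. A test of whether the effect differed between the 3 times called 5 members (8.06%, against 10.9% of all tested), each lower at 72 h than at 24 h (6.79% of all tested). They were ATP5MC1 (adjusted p = 0.0077), NDUFS5 (0.0164), NDUFV1 (0.0247), NDUFB8 (0.0354) and ATP5F1D on its brighter probe set (0.0458). The ATP5MC1 difference changed by -1.63 on the log2 scale between 24 and 72 h, and NDUFS5 by -1.28. Of these 5, only ATP5MC1 was called in this test without each of the 12 arrays in turn. Of all 62 members, 49 had a lower effect at 72 h than at 24 h, against 44.3% of all tested probe sets. These comparisons use the 24 h arrays labelled induced, on 1 of which RUNX1T1 was in the control range (-47.5).

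Induced cells at 12 h could be set only against the 0 h controls, so time and induction cannot be told apart. UQCRC2 was the 1 member called (1.61%, against 3.28% of all tested, 2.12% lower), at 3241 and 2443 against 4924 and 4878 (log2 -0.80 ± 0.16, adjusted p = 0.0207). That call was lost without either 0 h control (adjusted p = 0.087 and 0.0912) or induced replicate 2 (0.108). UQCRC2 was also low in the controls of 24 h (3512 and 3026) and 48 h (3348 and 3579). Replicate 1 exceeded replicate 2 at 12 h in 57 of 62 members, by a mean log2 gap of 0.59. It also did so in 49, 45 and 50 members in induced cells at 24, 48 and 72 h (0.17, 0.17 and 0.25) and in 47 in the 24 h controls (0.22), against 24 to 32 in the other controls. These replicate counts were made for members only and not for all tested probe sets, so they cannot be called particular to the members. Among the controls, no member was called at 24, 48 or 72 h against 0 h, where 0.498%, 0.0128% and 0.0383% of all tested were. In these comparisons 9, 5 and 4 of the 62 members had an unadjusted p under 0.05, against 13.4%, 8.95% and 7.43% of all tested.

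Other genes of the pathway were taken from lists. Of 11 tested assembly factors, which insert cofactors and join subunits and 2 of which are the members NDUFAF1 and NDUFAF3, 5 were lower and 1 higher over the 3 times, against 13.4% lower and 18.5% higher of all tested, with a median log2 difference of -0.16 over the 3 times and -0.74 at 72 h. BCS1L, which places the iron-sulphur protein in complex III, fell most (log2 -1.92 over the 3 times, adjusted p = 0.000623, with 1 of 6 induced arrays at the floor). COA1 (-0.54, adjusted p = 0.00582), HCCS, which attaches haem to cytochromes c and c1 (-0.56, 0.00634), and LRPPRC, which stabilises mitochondrial messenger RNA (-0.50, 0.0065), were also lower. Of 12 tested regulators of mitochondrial genes, 3 were lower and 0 higher over the 3 times (the same shares of all tested apply): MYC (log2 -2.08, adjusted p = 1.37e-06), YY1 (-1.06, 0.000266) and PPRC1, a coactivator of NRF1 (-0.84, 0.0379, with 2 of 6 induced arrays at the floor, and -0.27 at 72 h, adjusted p = 0.724).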

How the data were processed

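Total RNA (TRIzol, 10 ug) was hybridised to Affymetrix U95Av2 arrays, per the labels' protocols. The deposited values are linear intensity values per probe set, scaled by the authors with a factor per array, per the labels; 25.8% were below 0, and for the method of summarising probe sets, none was given in sources used here. Values under the 40th percentile (135.6) were set to it before log2. The 67 control probe sets were dropped, and those above the median of all values on at least 2 of 16 arrays were tested (7824). Group means were fitted with limma 3.58.1 in R 4.3.3 (eBayes with trend, 8 residual degrees of freedom), with two-sided tests and Benjamini-Hochberg adjustment over all tested; it was tested on simulated data. With 2 arrays a group, their number limits the precision.

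Genes were named from the platform annotation, for probe sets with 1 symbol only; all 62 member symbols matched RefSeq. The members and gene lists were chosen with earlier results of these data known. Named are members called in any comparison, the member with the strongest statistic in each complex, isoform pairs, genes whose probe sets disagree, up to 4 called genes of each other list by adjusted p over the 3 times, and RUNX1T1; other genes, such as range ends, were chosen after their values were seen. Alternatives were other floors, filters, scalings and controls, no trend, a replicate block and leaving out each array.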

Additional observations from a re-analysis of the deposited data

Results flagged for a closer look

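The difference between cells labelled induced and controls changed between 24, 48 and 72 h for 5 members, by an F test on the same-time differences with limma. The adjusted p was 0.0077 for ATP5MC1, whose log2 difference went from 0.15 at 24 h to -1.48 at 72 h. It was 0.0164 for NDUFS5, which went from 0.63 to -0.65, and 0.0354 for NDUFB8, which went from 0.46 to -0.75. It was 0.0247 for NDUFV1, from -0.09 to -1.10, and 0.0458 for ATP5F1D on its brighter probe set, from -0.14 to -1.07. NDUFS5 and NDUFB8 thus changed sign between 24 and 72 h, though their 24 h values were not called. Without 1 array, the test of NDUFV1 was lost in 5 of 12 fits, that of NDUFS5 in 3, that of NDUFB8 in 10 and that of ATP5F1D in 11, with adjusted p up to 0.0948, 0.0788, 0.143 and 0.185.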

How the results depend on the processing

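Over the alternatives, values of called members kept direction and call in 549 of 704 cases, lost the call in 154 and reversed in 1, which was UQCRB over the 3 times against the 0 h controls (-0.066). At 72 h ATP5MC1, NDUFV1, NDUFS7, COX5A and ATP5F1D (brighter probe set) were called under all 15 alternatives. The cause of the changes was not tested, except that settings with fewer arrays have less information.

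The counts that follow are of members only. The share of all tested probe sets called under each setting is not given beside them, so no change can be called particular to the members. The count of members called over the 3 times was 13 and became 4 against the 0 h controls. The count at 48 h, 7 in the analysis as reported, became 4 with no filter, 2 with no trend and 1 against the 0 h controls. The count for the difference between times (5) became 3 with no filter, 3 with median centring and 1 with no trend. The count at 12 h (1) became 0 with median centring and 0 with no trend. Leaving out 1 array gave 10 to 14 members over the 3 times, 0 to 0 at 24 h, 1 to 3 at 48 h, 6 to 12 at 72 h, 1 to 5 between times, 0 to 4 at 12 h and 0 to 0 between controls. The 6 at 72 h came without induced replicate 2 and without control replicate 1, and the 1 at 48 h without control replicate 1. Median centring gave 1 higher and 10 lower members over the 3 times and 0 higher and 14 lower at 72 h. Among all called probe sets, the share of higher calls went from 58.1% to 44.8% over the 3 times and from 53.6% to 43.2% at 72 h.

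The labels' replicate numbers were not taken to pair the arrays. Correlations of replicate differences between groups ran from -0.15 to 0.25 with a median of 0.071, over 0.1 in only 7 of 28 pairs of groups. Even so, replicate 1 was the higher one for 45 to 57 of 62 members in 5 of 8 groups, and for 24 to 32 in the others. This was not counted over all tested probe sets. The replicate block gave 15 members over the 3 times, 8 at 48 h, 16 at 72 h, 7 between times and 2 at 12 h. The share of all tested probe sets called with the block is not given here, so these counts cannot be set against it.

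Signs also changed for values that were not called. With median centring the 24 h values became -0.021 for NDUFS7, -0.0065 for ATP5F1D (dimmer probe set) and -0.044 for COX5A, the 48 h values -0.0082 for NDUFB8 and -0.11 for UQCRC2, the NDUFV2 change between times -0.060, and the 12 h values 0.21 for NDUFS7, COX5A and UQCRC1, 0.079 for NDUFV2, 0.061 for NDUFV1 and 0.066 for NDUFS5. With quantile normalization UQCRB between times became 0.015 and UQCRC1 at 24 h 0.062. Against the 0 h controls the 24 h values became -0.032 for NDUFS7, 0.16 for ATP5F1D (brighter probe set), -0.21 for UQCRB and -0.47 for UQCRC2, UQCRB at 72 h -0.14 and UQCRC2 at 48 h -0.46.

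Leaving out 1 array, the 24 h values ran from -0.19 to 0.31 for NDUFS7, -0.073 to 0.14 for COX5A, -0.29 to 0.16 and -0.50 to 0.042 for the CYC1 probe sets, -0.29 to 0.014 and -0.33 to 0.47 for those of ATP5F1D, -0.10 to 0.039 for UQCRC1, -0.0095 to 0.52 for NDUFA1 and -0.22 to 0.53 for ATP5MC1. At 12 h they ran from -0.41 to 0.33 for COX5A, -0.0038 to 0.37 and -0.17 to 0.31 for CYC1, -0.31 to 0.23 for NDUFS7, -0.44 to 0.10 for NDUFV2, -0.64 to 0.059 for NDUFB1, -0.24 to 0.16 for UQCRC1, -0.52 to 0.016 for NDUFB8 and -0.52 to 0.15 for NDUFS5. Between times they ran from -0.26 to 0.13 for UQCRB, -0.23 to 0.31 for NDUFV2, -0.013 to 0.52 for NDUFA1 and -0.62 to 0.056 for NDUFB1, at 48 h from -0.057 to 0.14 for UQCRC2, and over the 3 times from -0.13 to 0.031 for NDUFB8. Signal over background limits the 8 members that were not tested.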

Other observations

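Enzymes that feed the respiratory chain moved both ways. Of 21 tested genes of the tricarboxylic acid cycle and pyruvate dehydrogenase, 3 were higher and 3 lower over 24, 48 and 72 h together. PDHB, a subunit of pyruvate dehydrogenase, rose (log2 0.97, adjusted p = 8.6e-05 by limma), as did PDHX of the same complex (0.62, 0.00202) and OGDH (0.65, 0.00191), while ME2, the mitochondrial malic enzyme, fell (-1.19, 0.000468). At 72 h 2 of these 21 were higher and 5 lower, against 16.1% and 13.9% of all tested.

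Of 7 tested quinone-linked genes, DHODH (-1.18, adjusted p = 0.00777, with 1 of 6 induced arrays at the floor) and COQ2, of ubiquinone synthesis (-0.82, 0.0238), were lower. Of 8 antioxidant genes, GPX4 was higher (0.62, 0.000115) and GSR (-1.06, 0.000643) and CAT (-0.25, 0.027) were lower. None of 8 tested carriers and pores was called over the 3 times, and VDAC1 was lower at 72 h (-0.92, 0.0196). For all tested probe sets, 18.5% were called higher and 13.4% lower over the 3 times.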
